A study of Mus musculus with 56 samples.

Results

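*Fabp5*, the gene of the epidermal fatty acid binding protein, and 8 genes around it were followed in sorted thymic epithelial cells (TECs) of the mouse. The 9 genes, of 50600 in the deposited files, were taken as a given list. They comprise the fatty acid binding proteins *Fabp5*, *Fabp4*, *Fabp3* and *Fabp7*, the cellular retinoic acid binding proteins *Crabp1* and *Crabp2*, the nuclear receptors *Pparg* and *Ppard*, and *Angptl4*, a target gene of these receptors. The members were chosen by measured values, namely the higher *Fabp5* level of cortical TECs (cTECs) at day 6 after birth than late in gestation and its smaller difference in medullary TECs (mTECs), so those values are given as a description with no test. The question was whether the relatives of *Fabp5*, or target genes of the peroxisome proliferator-activated receptors (PPARs), shared that pattern.

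RNA of poly-A selected transcripts was sequenced in 56 samples, 28 of cTECs and 28 of mTECs, each sorted from the thymus of 1 mouse. Both populations were EpCAM+ and CD45-, and the lectin UEA1 separated them, cTECs being UEA1- and mTECs UEA1+. All dams were B6.SJL females. NPC denotes females that were not pregnant. D-2 denotes females mated with BALB/cJ males and taken 2 days before birth, and D0 to D28 denote females so mated and taken on that day after birth, with the pups removed at birth. Ages of the mice were not given in the sources used here. In each cell type, 6 of the 16 time points had 3 samples (NPC, D-2, D0, D3 and the days D6 and D12), and the other 10 had 1, so that each late value rested on a single mouse. Depth, as total expected counts, had a median of 17972566 and spanned 4561208 to 108547384. At equal depth, 3 libraries held few detected genes, namely 9964 in cTEC D3 replicate 2, 11668 in mTEC D3 replicate 1 and 12423 in cTEC D20, against medians of 15350 in cTECs and 16666 in mTECs. The sorts matched their names by *Psmb11*, the cTEC proteasome subunit, which was at 223 to 446 FPKM in cTECs and 53.9 to 178 in mTECs at D6, and by *Aire*, the mTEC regulator, which was at 1.15 to 16.5 FPKM in cTECs and 95.2 to 317 in mTECs at NPC. At D-2 *Aire* was at 8.07 ± 5.23 FPKM (mean ± SD, n = 3) in cTECs and 104 ± 50.3 in mTECs. *Psmb11* separated the sorts less at D-2, at 27.3 ± 10.4 FPKM in cTECs and 15.6 ± 11.1 in mTECs. *Epcam* and *Foxn1*, the master regulator of TECs, were present in both, at 73.7 to 183 and 67.8 to 220 FPKM in NPC cTECs. In sorted bulk RNA, fewer cells of a type and less RNA per cell cannot be told apart.

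Fatty acid binding proteins are small barrel-shaped chaperones that carry fatty acids and related lipids through the cytosol, and the retinoic acid binding proteins do the same for retinoic acid. In other tissues FABP5 and CRABP2 are known to hand their ligands to nuclear receptors, FABP5 to PPAR delta and CRABP2 to the retinoic acid receptor. PPARs pair with retinoid X receptors and turn on genes of fatty acid uptake, burning and storage when bound by lipids. cTECs present self peptides to immature thymocytes and draw them into the cortex, whereas mTECs present tissue-restricted antigens, and involution of the thymus during pregnancy is reversed after birth.

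On GRCm38, *Fabp5* (ENSMUSG00000027533.10) lies on chromosome 3 from 10012548 to 10016607 on the plus strand. *Fabp4* (ENSMUSG00000062515.3) is close to it on chromosome 3, from 10204088 to 10208576 on the minus strand, and *Crabp2* (ENSMUSG00000004885.5) is on the same chromosome from 87948666 to 87953376. *Fabp3* (ENSMUSG00000028773.8) lies on chromosome 4 from 130308595 to 130315463, *Fabp7* (ENSMUSG00000019874.11) on chromosome 10 from 57784881 to 57788450, and *Crabp1* (ENSMUSG00000032291.8) on chromosome 9 from 54764748 to 54773110. *Angptl4* (ENSMUSG00000002289.15) lies on chromosome 17 from 33773750 to 33781830, *Ppard* (ENSMUSG00000002250.15) on chromosome 17 from 28232700 to 28301474, and *Pparg* (ENSMUSG00000000440.12) on chromosome 6 from 115360951 to 115490399. *Fabp3* overlaps *Zcchc17* and *Gm10570*, and *Pparg* overlaps the antisense gene *Gm44079*, all on the opposite strand. The library kit marks strand, but the strand setting of the counting was not given in the sources used here, so reads of these pairs may be mixed.

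The 6 binding proteins are paralogs, so reads could be shared between them, and their coding sequences are shown to let that be judged. The first 60 coding bases of each, from GENCODE M21 transcripts on GRCm38, read 5′ to 3′ with the ATG start codon in capitals:
Fabp5: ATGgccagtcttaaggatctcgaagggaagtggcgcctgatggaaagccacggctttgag
Fabp4: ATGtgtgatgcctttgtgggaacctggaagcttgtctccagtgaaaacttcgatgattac
Fabp3: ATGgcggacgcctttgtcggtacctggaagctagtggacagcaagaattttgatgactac
Fabp7: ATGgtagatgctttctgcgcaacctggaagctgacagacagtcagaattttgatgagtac
Crabp1: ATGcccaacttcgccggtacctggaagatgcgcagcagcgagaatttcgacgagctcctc
Crabp2: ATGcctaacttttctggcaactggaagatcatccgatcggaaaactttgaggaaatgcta

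Over the whole coding sequence, *Fabp5* (408 bases) was identical to *Fabp4* at 64.1% of aligned positions, to *Fabp7* at 60.2%, to *Fabp3* at 59.7%, to *Crabp2* at 56.4% and to *Crabp1* at 54.4%, gaps counted as differences. The longest run of bases shared with *Fabp5* was 13, in *Fabp7*, and the longest shared by any pair of the 6 was 20, between *Fabp3* and *Fabp7*. The posterior SD that RSEM gives for a gene's count was at most 0.22% of the count for *Fabp5*. For *Fabp3* it reached 33.2%, and the processed copy *Fabp3-ps1* was listed with up to 122 expected counts, so the *Fabp3* values are uncertain. The copy *Fabp5l2* had 3.01 expected counts over all 56 samples.

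*Fabp5* was among the most abundant transcripts of cTECs, and its level swung widely between gestation and the month after birth. In NPC cTECs it was at 676, 1443 and 934 FPKM (fragments per kilobase, scaled to the mapped fragments of the library, a level per length). At D-2 it was at 217, 212 and 152 FPKM, and at D0 at 400, 359 and 354 FPKM. All D-2 samples lay below all NPC and all D0 samples. Single cTEC samples then stood at 777 FPKM at D1, 1164 at D2, 1715 at D4 and 1260 at D5, and the 3 samples of D3 at 966, 1887 and 730 FPKM, the highest of them being the library with the fewest detected genes. At D6 the cTEC values were 1496, 1922 and 2090 FPKM, and at D12 they were 1463, 1384 and 1242 FPKM. The D6 and D12 samples did not overlap. Between them, D8 stood at 1418 and D10 at 1364 FPKM. Of the 4 late samples, D16 was at 2095 FPKM, D20 at 810, D24 at 547 and D28 at 715, so that the highest and one of the lower postpartum values stood at neighbouring sampling days. By mean level, *Fabp5* ranked 403rd among the genes of cTECs at D-2 and 30th at D6, with 1 as the most abundant.

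In mTECs the same gene moved within a narrower range. Its values were 567, 543 and 798 FPKM at NPC, 294, 393 and 297 at D-2, and 297, 325 and 334 at D0. They were 517, 479 and 470 FPKM at D6, and 504, 756 and 599 FPKM at D12. The remaining mTEC samples lay between 362 FPKM at D1 and 1045 FPKM at D16, the latter the highest mTEC value as D16 was the highest cTEC value. Every D6 sample lay above every D-2 sample in mTECs too.

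**Figure D1:**
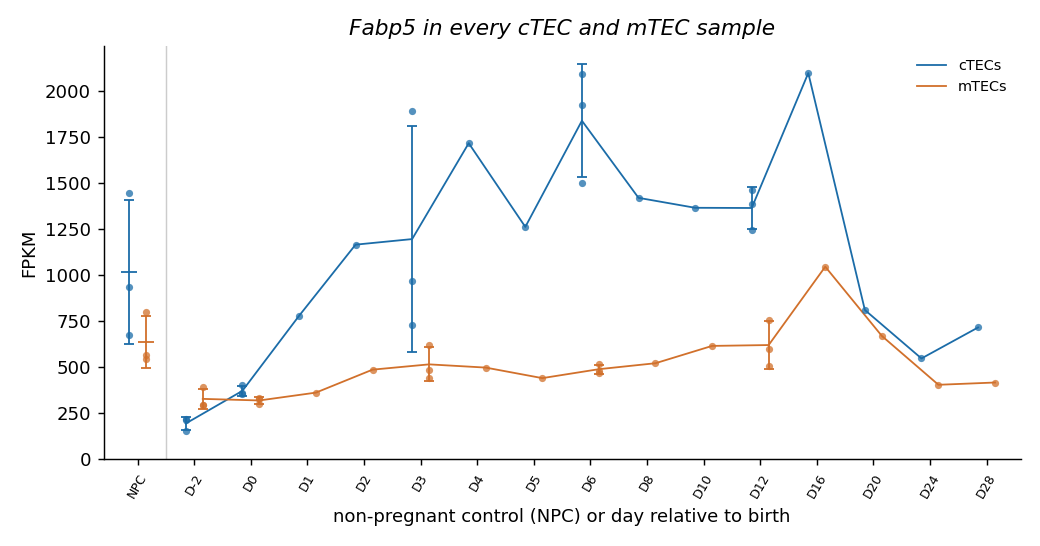
*Fabp5* level in FPKM (vertical axis) in every cTEC (blue) and mTEC (orange) sample, for non-pregnant controls (NPC) and by sampling day relative to birth, days being spaced evenly. Points are mice, and lines join the means, with bars of 1 SD where there were 3 mice; the cTEC samples go from 152 to 217 FPKM at D-2 to 1496 to 2090 FPKM at D6, while the mTEC samples of D6 lie at 470 to 517 FPKM.

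Ordered by mean level over the replicated groups, cTEC D-2 was lowest at 194 ± 36.0 FPKM (SD, n = 3), followed by mTEC D0 at 319 ± 19.3, mTEC D-2 at 328 ± 56.3 and cTEC D0 at 371 ± 25.4 FPKM. Next came mTECs of D6 at 489 ± 25.0, D3, D12 and NPC, then cTECs of NPC at 1018 ± 390, D3 and D12 at 1363 ± 112, and cTEC D6 was highest at 1836 ± 306 FPKM. Neighbours in this order were free of overlap at 3 places only, between cTEC D-2 and mTEC D0, between cTEC D0 and mTEC D6, and between cTEC D12 and cTEC D6. The cTEC mean exceeded the mTEC mean at 15 of 16 time points, with a median ratio of 2.17 and a highest of 3.76. The exception was D-2, where the cTEC mean was 0.592 of the mTEC mean. The other binding proteins were minor beside *Fabp5*: it made up 86.5% to 99.8% of the summed FPKM of the 6 in cTECs and 72.8% to 96.3% in mTECs.

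Between D-2 and D6, the contrast the list was built on, the fitted log2 fold change of *Fabp5* was 3.22 (SE 0.19) in cTECs and 0.61 (SE 0.14) in mTECs, a difference between the cell types of 2.60 (SE 0.24) on the log2 scale. Genes were tested with limma-voom on the expected counts and called where the fold change reached 2 and p, adjusted over all genes by Benjamini and Hochberg, did not exceed 0.01. In cTECs 1 of the 7 members tested was called, *Fabp5* itself, and 1.34% of all genes were, 0.675% higher and 0.669% lower. *Fabp7* and *Pparg* fell below the filter of a mean of 0.5 FPKM in cTECs and were not tested there. *Fabp3* passed it, but only 7 of 28 cTEC samples were above 0, so its lack of a call says little. In mTECs 1 of the 9 members was called, *Angptl4*, against 0.299% of all genes (0.197% lower), and in the difference between cell types 1 of 9, again *Fabp5*, against 0.00544%, which is that 1 gene of 18394. These counts describe the choice of members and nothing was read from them.

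The level of *Fabp5* was then compared in samples outside that contrast. The genes were chosen with earlier results of these data known. The p-values of *Fabp5* here and below are therefore a description and no independent support. From D0 to D12 *Fabp5* rose in cTECs, from 371 ± 25.4 to 1363 ± 112 FPKM, by 1.91 on the log2 scale (SE 0.10, limma-voom adjusted p = 5.15e-06), with 3 of 3 D12 samples above every D0 sample. It was the member called of the 7 tested, and 1.63% of all genes were called, 0.997% higher. In mTECs the levels were 319 ± 19.3 FPKM at D0 and 620 ± 128 FPKM at D12, a log2 difference of 0.94 (SE 0.18) that was not called at limma-voom adjusted p = 0.0354, although 3 of 3 D12 samples lay above every D0 sample. None of the 9 members was called there, 2 having an unadjusted p under 0.05, and edgeR and DESeq2 called 0 as well. The background was 0.062% of genes, 0.0169% higher and 0.0451% lower. The D0 to D12 difference was larger in cTECs than in mTECs by 1.04 on the log2 scale (SE 0.20), with a limma-voom adjusted p of 0.0389 that missed the threshold and ranged from 0.000827 to 0.26 over the alternatives. None of 9 members was called in that difference, 1 had an unadjusted p under 0.05, edgeR and DESeq2 called 0, and 0.0815% of all genes were called.

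Transcripts of other cells and of cTEC identity moved over the same days. The summed level of 8 thymocyte genes in cTECs was 13.3 to 16.4 FPKM at D-2, 16.8 to 25.2 at D0, 48.2 to 63.7 at D6 and 76.6 to 91.8 at D12, and 5 of these 8 genes were called higher at D12 than at D0. The 8 cTEC markers summed to 1598 to 2718 FPKM at D-2, 2906 to 3825 at D0, 11140 to 12260 at D6 and 10330 to 11330 at D12, and 4 of them were called higher at D12 than at D0. Of all genes 0.997% were called higher in that comparison. In mTECs the cTEC markers summed to 828 to 1509 FPKM at D-2 and 2540 to 4850 at D6. The part of these in the *Fabp5* values was not tested.

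Late gestation was compared with the non-pregnant state, in samples that share D-2 with the contrast the genes were chosen on, so that *Fabp5* is described there with no test. *Fabp5* was at 1018 ± 390 FPKM at NPC and 194 ± 36.0 at D-2 in cTECs, a log2 difference of -2.31 (SE 0.27), and at 636 ± 141 and 328 ± 56.3 FPKM in mTECs, a log2 difference of -0.87 (SE 0.21). Every D-2 sample lay below every NPC sample in both cell types. None of 7 members in cTECs and none of 9 in mTECs was called by limma-voom or edgeR, with 3 and 5 members at an unadjusted p under 0.05. DESeq2 called 2 in cTECs and 1 in mTECs. By limma-voom 0% of all genes were called at this threshold in either cell type. The share of all genes called by DESeq2 is not given here, so its counts do not set the members apart. The median log2 difference over all genes in mTECs was 0.169, and in the cell type difference of D6 against D-2 it was -0.138, so that values there are to be read against those medians.

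The late phase (D16 to D28, 4 samples) was compared with the early phase (D0 to D12 without D6, 15 samples). The log2 difference of *Fabp5* was -0.23 (SE 0.40, limma-voom adjusted p = 0.764) in cTECs and 0.24 (SE 0.21, limma-voom adjusted p = 0.579) in mTECs. Without the mTEC sample of D16 the latter became -0.037. No member was called in either cell type by limma-voom, edgeR or DESeq2, with 0 members in cTECs and 2 in mTECs at an unadjusted p under 0.05. The background was 0.94% of genes in cTECs and 0% in mTECs. Without the cTEC library of D20, in which *Fabp4* was at 0 FPKM, 1 member was called, *Fabp4*, whose log2 difference went from -1.70 (limma-voom adjusted p = 0.396) to 1.27 (limma-voom adjusted p = 0.00888).

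Averaged over NPC, D0, D3 and D12, *Fabp5* was higher in cTECs than in mTECs by 0.77 on the log2 scale (SE 0.12, limma-voom adjusted p = 3.23e-05, n = 12 samples per cell type), a difference under 2-fold and therefore not called. Its relatives had the opposite order. *Fabp4*, *Fabp3*, *Fabp7* and *Crabp1*, 4 of the 9 members, were called lower in cTECs and none was called higher, against 11.5% of all genes called, 3.76% higher and 7.78% lower. edgeR and DESeq2 also called 4 members each. A gene could enter this contrast on its level in either cell type alone. *Fabp7* entered through mTECs only, which favours a lower call in cTECs, and *Fabp3* was above 0 in only 7 of 28 cTEC samples. The count of 4 is therefore a description.

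*Fabp4*, the adipocyte fatty acid binding protein, was the second most abundant of the binding proteins. In cTECs it was at 15.1, 13.8 and 20.3 FPKM at NPC, 15.1, 21.4 and 8.79 at D-2, 13.0, 6.37 and 8.18 at D0, 0.72, 6.51 and 8.41 at D6, and 4.98, 16.2 and 6.93 at D12. In mTECs it was at 102, 37.7 and 117 FPKM at NPC, 53.0, 86.3 and 49.3 at D-2, 48.0, 77.6 and 44.8 at D0, 37.5, 6.77 and 9.17 at D6, and 70.5, 87.9 and 117 at D12. The mTEC mean was the higher at 16 of 16 time points, and the log2 difference of cTECs from mTECs was -2.57 (SE 0.41, limma-voom adjusted p = 4.25e-05), with 12 of 12 cTEC samples below every mTEC sample. At D6, where *Fabp5* had its highest replicated mean in cTECs, the *Fabp4* values lay below those of D-2 in both cell types. The log2 difference of D6 from D-2 was -2.44 (SE 0.81, limma-voom adjusted p = 0.105) in cTECs and -1.95 (SE 0.53, limma-voom adjusted p = 0.086) in mTECs, neither called, with 3 of 3 D6 samples below every D-2 sample each time. Over the 16 time points, *Fabp4* had its highest level in both cell types at D16 (1 sample each), 37.2 FPKM in cTECs and 252 in mTECs, and the *Fabp5* level was highest there as well.

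Other cells rich in *Fabp4* were looked for beside it. Adipocyte markers summed to 0 to 5.34 FPKM over all cTEC samples and 0 to 34.4 over all mTEC samples. In mTECs they were at 5.46 to 7.97 at D-2, 0.57 to 5.35 at D6, 11.5 to 34.4 at D12 and 10.5 at D16, with *Lep* at 0 at D-2, D0, D6 and D12 and *Adipoq* at most 7.96 FPKM. The 8 macrophage markers summed to 0.41 to 13.8 FPKM in cTECs and 10.5 to 55.9 in mTECs, where they were at 19.98 to 28.4 at D-2, 10.9 to 26.0 at D6, 47.8 to 55.9 at D12 and 50.9 at D16, *Vsig4* being at 0 at D-2, D6 and D12. Endothelial markers summed to at most 6.1 FPKM in cTECs and 16.4 in mTECs. Their part in the *Fabp4* values was not tested.

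*Fabp3*, the heart form, was listed at 0 in 21 of 28 cTEC samples and reached 21.4 FPKM in D3 replicate 2, the library with the fewest genes. All NPC, D-2 and D0 cTEC samples were at 0, and D6 held 0, 1.22 and 0 FPKM. In mTECs it was at 12.7, 11.5 and 9.69 FPKM at NPC, 7.58, 9.22 and 4.1 at D-2, 3.46, 0.65 and 2.67 at D6, and 13.4, 9.37 and 5.71 at D12. The difference of cTECs from mTECs was -4.60 on the log2 scale (SE 0.73, limma-voom adjusted p = 3.53e-05). In mTECs every D6 sample lay below every D-2 sample, at a limma-voom adjusted p of 0.326.

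*Fabp7*, the brain form, was at 0 in 23 of 28 cTEC samples, and all D6 samples were among them. Its highest cTEC value was 3.85 FPKM, in the D20 library with few genes. In mTECs it reached 8.83 FPKM, with a median of 4.19 over 28 samples, 5 of them at 0. The difference of cTECs from mTECs was -3.77 on the log2 scale (SE 0.88, limma-voom adjusted p = 0.00206), in a contrast that *Fabp7* entered through mTECs only. No rise like that of *Fabp5* was seen in *Fabp3* or *Fabp7* at this depth, since values near 0 rest on few reads.

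*Crabp1* and *Crabp2* carry retinoic acid, the former mostly tied to its breakdown. *Crabp1* was at 7.53, 4.3 and 0.95 FPKM in cTECs at D-2 and at 0, 0 and 0.58 at D6. The D6 values lay below the D-2 values, opposite in direction to *Fabp5*, at a log2 difference of -5.83 (SE 1.80, limma-voom adjusted p = 0.0885), not called. The mTEC marker *Aire* was also lower in cTECs at D6, at 2.03 ± 1.31 FPKM beside 8.07 ± 5.23 at D-2. Other mTEC markers were lower or little changed there, and none was called. The part of mTEC transcripts in the *Crabp1* and *Fabp4* values of cTECs was not tested. In mTECs *Crabp1* was at 9.89, 33.5 and 32.0 FPKM at NPC, 18.2, 18.2 and 14.1 at D-2, 16.7, 4.21 and 3.05 at D6, and 12.4, 27.8 and 32.4 at D12. All 12 cTEC samples of NPC, D0, D3 and D12 lay below every mTEC sample of those groups, with a log2 difference of -5.63 (SE 0.72, limma-voom adjusted p = 2.3e-06).

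*Crabp2* was low in both cell types, at a median of 5.05 FPKM in cTECs and 9.93 in mTECs. In cTECs it was at 7.42, 5.26 and 7.02 FPKM at D0 and 1.61, 1.82 and 4.71 at D12, where *Fabp5* had risen. Every D12 sample lay below every D0 sample, at a log2 difference of -1.34 (SE 0.49) that was not called (limma-voom adjusted p = 0.116). The mTEC mean was the higher at 15 of 16 time points, and the difference of cTECs from mTECs was -1.43 on the log2 scale (SE 0.64, limma-voom adjusted p = 0.0971), not called. Without the mTEC library of D3 replicate 1 it was -1.97 and called (limma-voom adjusted p = 0.00433).

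**Figure D2:**
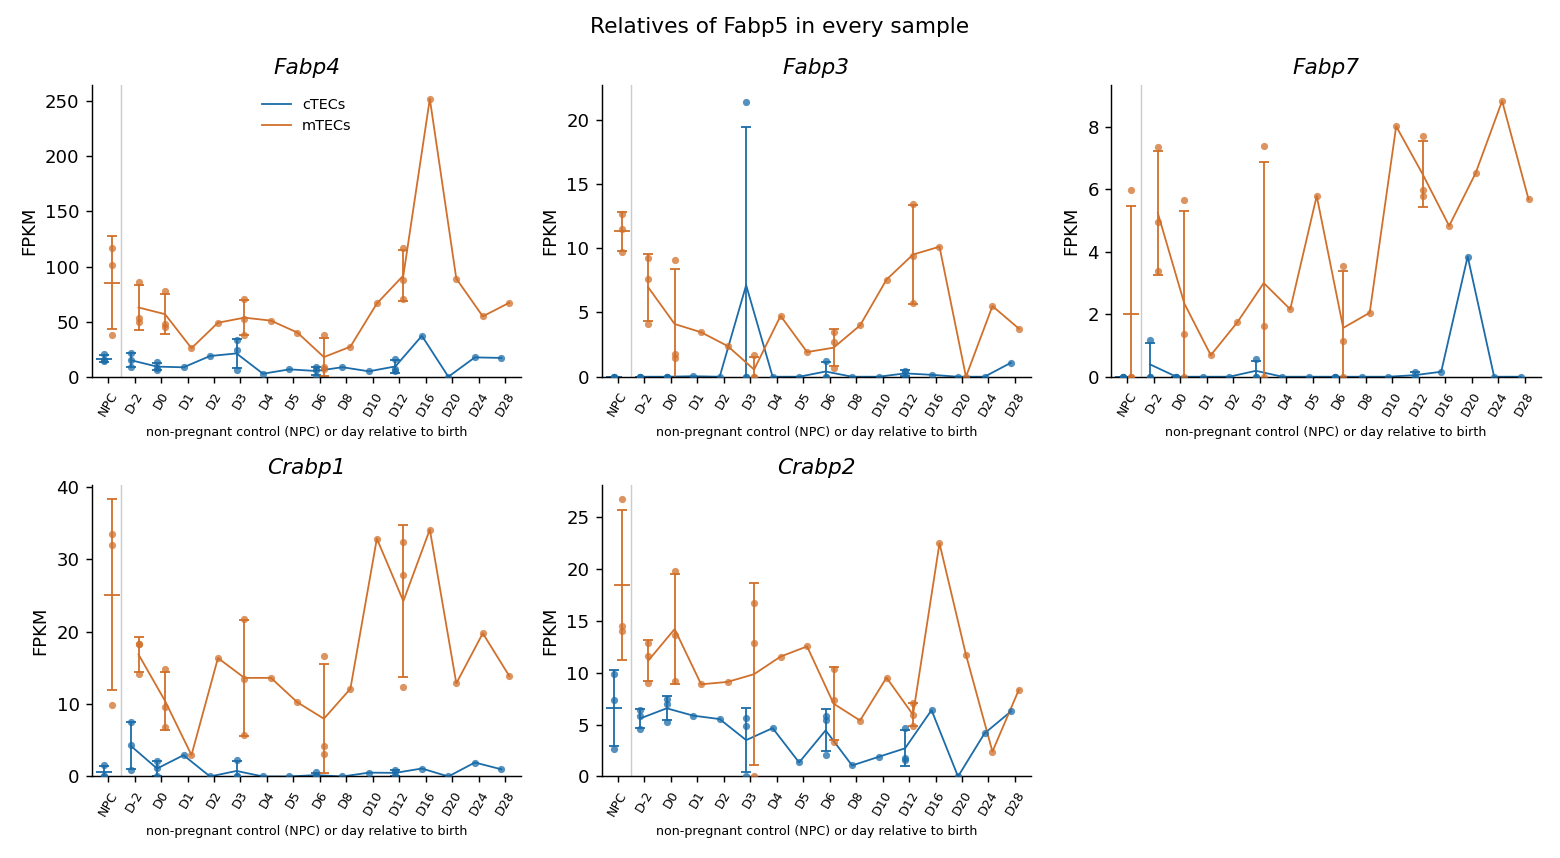
Level in FPKM (vertical axes, each with its own range) of *Fabp4*, *Fabp3*, *Fabp7*, *Crabp1* and *Crabp2* in every cTEC (blue) and mTEC (orange) sample, for NPC and by sampling day, days being spaced evenly. Points are mice, lines join means and bars are 1 SD where there were 3 mice, cut off at 0; mTECs lie above cTECs at most days, at 16 of 16 time points for *Fabp4*, and the single high cTEC value of *Fabp3*, 21.4 FPKM, is the D3 library with the fewest genes.

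Neither receptor was called in any comparison in which it was tested. *Ppard*, the receptor that FABP5 is known to serve, was at 9.84, 10.4 and 9.09 FPKM at D-2 and 10.4, 14.4 and 12.1 at D6 in cTECs, with overlapping values (limma-voom adjusted p = 0.417). Over all samples it lay between 9.06 and 23.2 FPKM in cTECs and 3.07 and 17.5 in mTECs, and the cell types did not differ detectably (limma-voom adjusted p = 0.652). *Pparg*, the receptor of adipocyte differentiation, was at 0 in 14 of 28 cTEC and 10 of 28 mTEC samples and reached 3.53 and 4.08 FPKM. In mTECs *Pparg* was at 0, 0 and 1.69 FPKM at NPC and 0.89, 4.08 and 2.91 at D-2 (limma-voom adjusted p = 0.332).

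*Angptl4* encodes a secreted inhibitor of lipoprotein lipase and is a known target of PPARs. In cTECs it was at 6.19, 15.5 and 10.6 FPKM at NPC, 47.8, 54.9 and 56.7 at D-2, 5.1, 32.8 and 7.8 at D0, 2.14, 15.1 and 8.43 at D6, and 4.01, 16.1 and 6.79 at D12. In mTECs it was at 7.38, 5.99 and 8.05 FPKM at NPC, 28.02, 21.6 and 32.9 at D-2, 12.9, 21.5 and 8.74 at D0, 3.4, 6.52 and 10.98 at D6, and 10.2, 13.9 and 9.02 at D12. The D-2 samples lay above every NPC and every D6 sample in both cell types, opposite in order to *Fabp5*.

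The log2 difference of *Angptl4* between D6 and D-2 was -3.11 in cTECs (SE 0.56, limma-voom adjusted p = 0.0137), short of the threshold and not called. That adjusted p ran from 0.00199 to 0.104 over the alternatives, and the gene was called when cTEC D6 replicate 1 was left out (-2.08, adjusted p = 0.00626) or D6 replicate 2 was (-4.21, adjusted p = 0.00293). In mTECs, where this contrast is given as a description, the log2 difference was -2.57 (SE 0.34), and the gene was no longer called in edgeR, limma-trend or the 28-sample fit, or without any 1 of the 6 libraries (-2.77 to -2.31). The difference between the cell types was -0.52 (SE 0.81, limma-voom adjusted p = 0.84). From NPC to D-2 the log2 difference was 2.41 (SE 0.34, limma-voom adjusted p = 0.0622) in cTECs, not called, and 2.19 (SE 0.33) in mTECs, given as a description since D-2 is shared.

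PPAR target genes were then examined as a list of 24 chosen for fatty acid oxidation, lipid storage and uptake. Between D-2 and D6 in cTECs, 17 passed the filter, none was called higher and 1 was called lower, *Pdk4*. Of all genes 0.675% were called higher and 0.669% lower. Their median log2 fold change was -0.307, beside -0.0321 over all genes tested. edgeR also called 1 lower and none higher, though not *Pdk4*, and DESeq2 called 2 lower and none higher, while 2 were higher and 3 lower at an unadjusted p under 0.05. In mTECs 20 passed and none was called by limma-voom, against 0.299% of all genes, or by edgeR, and DESeq2 called 2 lower. At an unadjusted p under 0.05, 5 were lower and none higher in mTECs, with a median of -0.23 beside 0.0206 over all genes. In the D0 to D12 comparison of cTECs, where *Fabp5* rose, none of 17 was called by limma-voom or edgeR, 2 being higher and 2 lower at an unadjusted p under 0.05, and DESeq2 called 1 lower. Of all genes 1.63% were called there by limma-voom.

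*Pdk4*, the kinase that shuts pyruvate out of the mitochondrion when fat is burned, was also highest at D-2 among the replicated groups. In cTECs it was at 62.6, 31.2 and 26.4 FPKM at D-2 and 1.38, 3.77 and 13.5 at D6, and it fell by 2.82 on the log2 scale (SE 0.44, limma-voom adjusted p = 0.00754). That call was lost when any of the 6 libraries was left out, with adjusted p from 0.0113 to 0.0323 and log2 differences from -3.15 to -2.08 and in edgeR, at adjusted p = 0.0364. In mTECs it was at 12.7, 19.7 and 35.2 FPKM at D-2 and 5.6, 3.3 and 1.48 at D6 (log2 difference -2.34, SE 0.49, limma-voom adjusted p = 0.0384, not called).

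None of the most abundant PPAR targets was called between D-2 and D6 in cTECs. *Cpt1a*, which gates fatty acid entry into mitochondria, was at 114 ± 19.6 FPKM at D-2 and 145 ± 11.4 at D6 (limma-voom adjusted p = 0.295). *Hadha*, a subunit of the mitochondrial trifunctional enzyme, was at 174 ± 26.5 and 147 ± 28.1 FPKM (limma-voom adjusted p = 0.276), and its partner *Hadhb* at 101 ± 10.9 and 86.6 ± 22.5 (limma-voom adjusted p = 0.81). *Lpl*, the lipase that *Angptl4* restrains, was at 54.6 ± 22.8 FPKM at D-2 and 69.0 ± 41.1 at D6 (limma-voom adjusted p = 0.741). From D0 to D12 *Lpl* was higher by 0.81 on the log2 scale in cTECs (SE 0.11, limma-voom adjusted p = 0.00169), under 2-fold and not called, at 58.0 ± 4.31 and 95.6 ± 8.65 FPKM.

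**Figure D3:**
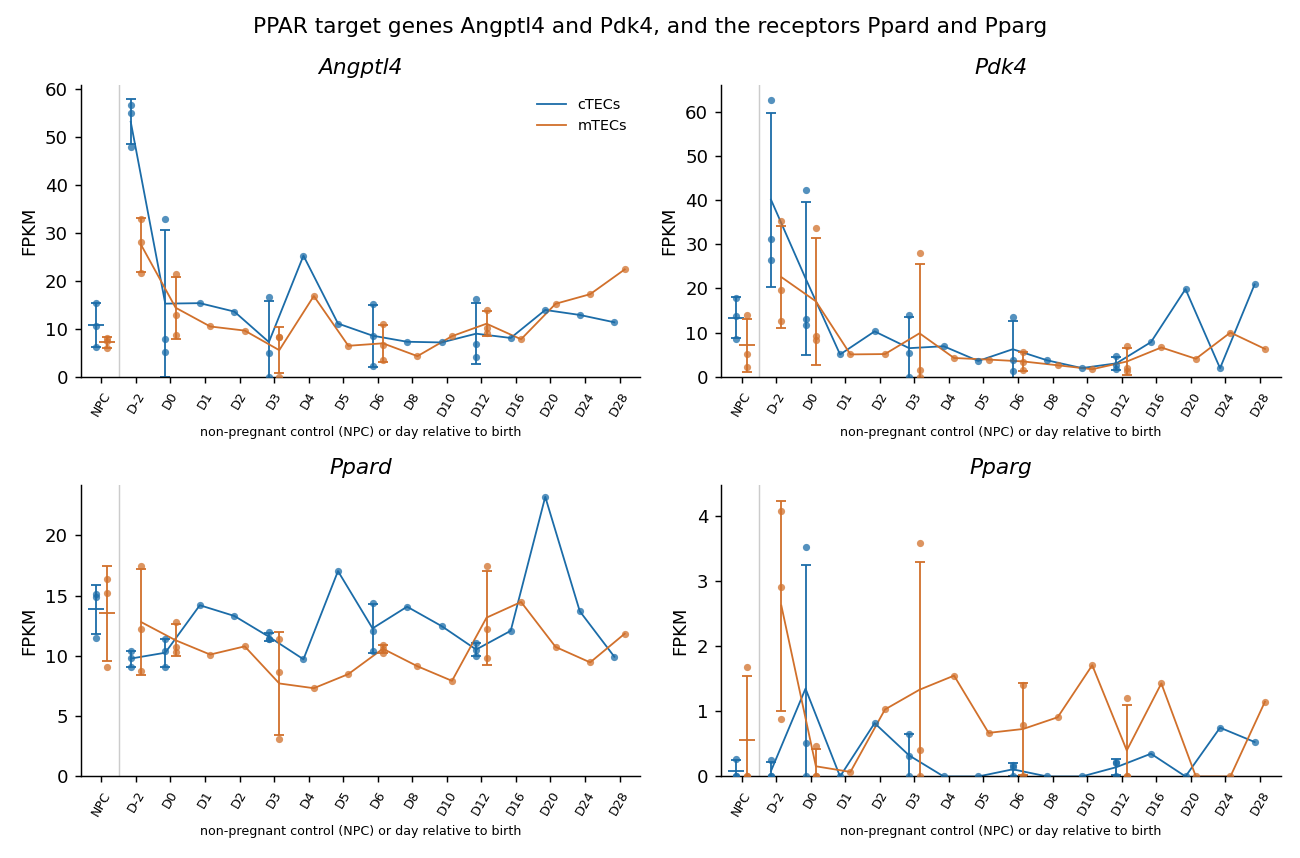
Level in FPKM (vertical axes, each with its own range) of *Angptl4*, *Pdk4*, *Ppard* and *Pparg* in every cTEC (blue) and mTEC (orange) sample, for NPC and by sampling day, days being spaced evenly. Points are mice, lines join means and bars are 1 SD where there were 3 mice, cut off at 0; *Angptl4* stands at 47.8 to 56.7 FPKM in cTECs and 21.6 to 32.9 in mTECs at D-2 and below those ranges at NPC and D6, whereas *Ppard* overlaps between D-2 and D6 in mTECs and in cTECs.

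Between the cell types 21 of the PPAR targets were tested outside D-2 and D6, and 5 were called higher and 2 lower in cTECs. Of all genes 3.76% were called higher and 7.78% lower. *Cpt1a* was higher by 1.40 on the log2 scale (SE 0.10, limma-voom adjusted p = 2.21e-10) and *Lpl* by 2.89 (SE 0.27, limma-voom adjusted p = 1.46e-08), 12 of 12 cTEC samples lying above every mTEC sample for both. Without the filter on low values *Cpt1a* was not called, at 1.49 and adjusted p = 0.451. *Hadhb* (1.03), *Ehhadh* (1.04), an enzyme of peroxisomal oxidation, and *Plin4* (3.42), a lipid droplet coat protein at a mean of 0.407 FPKM in cTECs, were the other called higher. Those 3 lost the call when single libraries were left out, *Hadhb* at a log2 difference down to 0.97 in 5 of 24, *Ehhadh* down to 0.93 in 8 of 24 and *Plin4* at an adjusted p up to 0.0106 in 3 of 24. *Cd36*, a fatty acid importer, was lower in cTECs, at means of 0.0467 and 1.03 FPKM (log2 difference -3.27), and so was *Fgf21*, a metabolic hormone, at 2.22 and 64.1 FPKM (log2 difference -5.07). Genes near 0 in 1 cell type, such as *Cd36*, could pass the filter through the other, which favours such calls. edgeR called 3 higher and 1 lower, and DESeq2 2 higher and 3 lower.

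The 9 PPAR partners, the remaining receptor *Ppara*, the retinoid X receptors and their coregulators, all passed the filter and none was called between D-2 and D6 in cTECs by limma-voom, edgeR or DESeq2, 1 being higher and 1 lower at an unadjusted p under 0.05. Of all genes 1.34% were called there by limma-voom. *Rxra*, the main partner by level of the 3 retinoid X receptors, was at 44.5 ± 4.86 FPKM at D-2 and 44.3 ± 8.07 at D6 (limma-voom adjusted p = 0.35). *Ncor1*, a corepressor, was at 138 ± 39.9 and 94.2 ± 14.9 FPKM (limma-voom adjusted p = 0.159). *Ppara* was scarce, at 2.53 ± 0.77 and 1.37 ± 0.562 FPKM.

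The genes of fatty acid and sterol synthesis, which the SREBP factors drive, were examined next. This list, like the others, was chosen with earlier results of these data known. Setting it against all genes, here and below, is therefore a description. Of 12 such genes, 4 were called higher in cTECs at D6 than at D-2, against 0.675% of all genes, and none lower, with a median log2 fold change of 1.47 beside -0.0321 over all genes. edgeR called 5 and DESeq2 7, all higher, and 9 were higher and 1 lower at an unadjusted p under 0.05. The share of 0.675% is that of limma-voom, and these other counts are not set beside shares of their own, so they do not set the list apart. *Fasn*, the fatty acid synthase, rose from 38.6, 30.6 and 24.5 FPKM at D-2 to 237, 147 and 180 at D6, by 2.59 on the log2 scale (SE 0.20, limma-voom adjusted p = 0.000275). *Scd2*, a desaturase, rose by 1.88 (SE 0.23, limma-voom adjusted p = 0.00221), *Srebf1*, the regulator of fatty acid synthesis, by 1.49 (SE 0.18, limma-voom adjusted p = 0.00184), and *Srebf2*, the regulator of sterol synthesis, by 1.03 (SE 0.16, limma-voom adjusted p = 0.00837).

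Of these calls, that of *Fasn* held when each library was left out. *Srebf2* lost its call without any 1 of the 6, with adjusted p up to 0.0429. *Scd2* lost it without D-2 replicate 1, D-2 replicate 2 or D6 replicate 3 (adjusted p = 0.0144, 0.0137 and 0.0242), and *Srebf1* without D-2 replicate 1 or 2 (adjusted p = 0.0144 and 0.0153). On log2 FPKM, limma-trend called none of them.

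The list was also compared between D0 and D12 in cTECs, in samples that the D6 contrast does not hold. There 4 of 12 were called higher, against 0.997% of all genes, and none lower by limma-voom, edgeR and DESeq2 alike, with a median log2 fold change of 0.609 beside 0.0304 over all genes. *Fasn* rose from 43.6, 31.5 and 48.1 FPKM to 111, 120 and 136 FPKM, by 1.59 on the log2 scale (SE 0.16, limma-voom adjusted p = 0.000367). *Sqle*, a sterol synthesis enzyme, rose by 1.42 (SE 0.12, limma-voom adjusted p = 0.000125), and *Idi1*, also of sterol synthesis, by 1.89 (SE 0.24, limma-voom adjusted p = 0.00124). The call of *Idi1* was lost without D0 replicate 3 (adjusted p = 0.012) and in the 28-sample fit (adjusted p = 0.167). Under limma-trend *Fasn*, *Sqle* and *Idi1* all missed the threshold, *Fasn* at adjusted p = 0.0213 and 0.0203 with the 2 pseudocounts.

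In mTECs none of the 12 was called between D-2 and D6 by limma-voom, against 0.299% of all genes, or by edgeR, while DESeq2 called 1 higher and 1 lower. *Fasn* was at 19.6, 24.5 and 19.2 FPKM at D-2 and 26.3, 40.2 and 28.5 at D6 there (limma-voom adjusted p = 0.227). The difference between the cell types was tested directly. None of the 12 was called by limma-voom, against 0.00544% of all genes, or by edgeR, and DESeq2 called 3. At an unadjusted p under 0.05, 8 of 12 had a larger log2 fold change in cTECs than in mTECs and none a smaller one. The share of all genes at that cut is not given here, so this count does not set the list apart. For *Fasn* that difference was 2.06 on the log2 scale (SE 0.33, limma-voom adjusted p = 0.0283). Over these days the cell cycle genes summed to 7.98 to 31.7 FPKM in cTECs at D-2 and 31.5 to 40.5 at D6, and the thymocyte genes as given above. Their part in the lipid synthesis values was not tested.

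**Figure D4:**
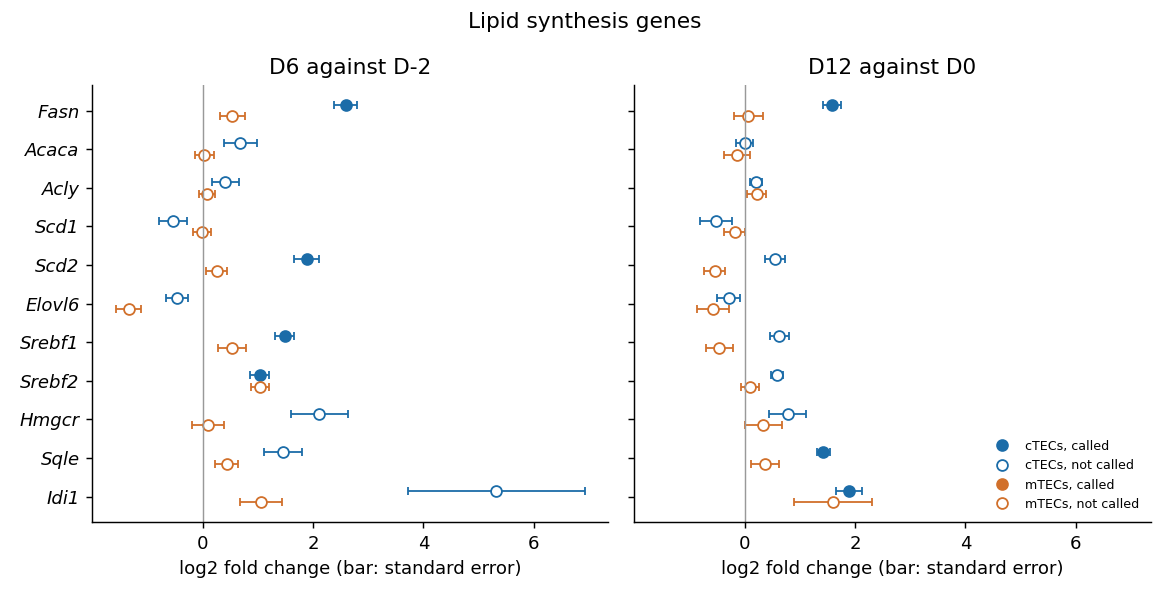
Fitted log2 fold change (horizontal axes) of 11 lipid synthesis genes (rows) for D6 against D-2 and D12 against D0, in cTECs (blue) and mTECs (orange), 3 mice per group, with bars of 1 standard error. Filled points were called; 4 cTEC points are filled for D6 against D-2 and 3 for D12 against D0, and no mTEC point is, *Fasn* being filled in both panels at 2.59 and 1.59.

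Retinoid genes were examined because of *Crabp1* and *Crabp2*. Of 12, 10 passed the filter in cTECs, and 1 was called lower at D6 than at D-2, against 0.669% of all genes. There edgeR called 1 higher and 1 lower and DESeq2 1 higher and 2 lower. *Aldh1a1*, which makes retinoic acid, fell from 23.96, 19.8 and 20.03 FPKM to 3.41, 4.1 and 5.36 FPKM, by 2.42 on the log2 scale (SE 0.26, limma-voom adjusted p = 0.00116). *Cyp26b1*, which degrades retinoic acid, rose in cTECs from 8.62, 7.58 and 6.87 FPKM at D0 to 26.7, 19.5 and 24.7 at D12, by 1.84 on the log2 scale (SE 0.16, limma-voom adjusted p = 0.000145). Under limma-trend on log2 FPKM both calls were lost, at adjusted p = 0.0193 and 0.0205 for *Aldh1a1* and 0.0207 and 0.0203 for *Cyp26b1* with the 2 pseudocounts. Between the cell types, *Aldh1a1* was higher in cTECs by 4.55 and *Cyp26b1* by 3.62, whereas *Aldh1a2*, another synthesis enzyme, *Cyp26a1*, another degrading enzyme, and *Stra6*, a retinol transporter, were lower, at log2 differences of -4.18, -4.98 and -3.69, all 5 called. Of all genes 3.76% were called higher and 7.78% lower in that contrast.

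The remaining lipid-binding relatives, 9 genes outside the members, were examined as well. In cTECs 5 of them were tested between D-2 and D6, none was called by limma-voom, edgeR or DESeq2, and 1 was lower and none higher at an unadjusted p under 0.05. Of all genes 1.34% were called there by limma-voom. *Fabp6*, the ileal bile acid binding protein, was lower in cTECs than in mTECs, at means of 1.33 and 39.3 FPKM and a log2 difference of -5.87 (SE 0.71, limma-voom adjusted p = 9.3e-07), and so was *Pmp2*, the myelin form, at 0.0283 and 2.23 FPKM and -3.67. The filter on either cell type favours such a call for a gene as near 0 in cTECs as *Pmp2*.

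The genes whose pattern over the 28 cTEC samples was most like that of *Fabp5* were then listed. By Pearson correlation of log2(FPKM + 0.5) among 10067 genes with a mean of at least 5 FPKM, they were *Prss16* (r = 0.975), the thymus-specific serine protease, *Crip3* (0.970), *Tbata* (0.956), *Tmem131l* (0.956), *Cd83* (0.948), *Cstb* (0.946), *Pithd1* (0.945) and *Pds5b* (0.938). These samples share the time course, so the values only describe how closely the courses ran. *Prss16* is also among the cTEC markers summed above. None of these genes is on the lipid lists, but those lists hold few of the genes compared, so that says little. *Prss16* went from a mean of 220 FPKM at D-2 to 2845 at D6 in cTECs, and *Tbata* from 396 to 3405. Over the 28 mTEC samples the correlations of the same genes with *Fabp5* were lower, 0.06 for *Prss16*, 0.02 for *Tbata* and at most 0.48, for *Pds5b*. Among the members, the correlation with *Fabp5* over cTEC samples was highest for *Ppard* at 0.31 and *Fabp3* at 0.29, and lowest for *Angptl4* and *Crabp1*, both at -0.57. In mTECs *Crabp1* stood at 0.47 and *Fabp4* at 0.41.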

How the data were processed

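Poly-A RNA of 28 cTEC and 28 mTEC samples was sequenced. Per the submitters' processing notes and the methods, the authors used bcl2fastq 2.20, Trimmomatic 0.35, STAR 2.5.1b on GRCm38 and RSEM 1.2.28. They deposited, for 50600 genes per sample, expected counts (estimated counts, not normalized), FPKM values scaled by gene length and depth, and RSEM's posterior SD of the count, a score of counting uncertainty. The annotation release was not given in the sources used here. GENCODE M21 matched 50376 identifiers. Depth limits low genes: values near 0 FPKM rest on few reads.

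Expected counts were rounded, scaled by TMM and tested with limma-voom (limma 3.58.1, edgeR 4.0.16, R 4.3.3) within the samples of each of 11 comparisons. A gene was tested at a mean of at least 0.5 FPKM over the 28 samples of the cell type (either type for contrasts between them), and called where the fold change reached 2 and the p adjusted by Benjamini and Hochberg over all genes tested did not exceed 0.01. The fits were tested on simulated data. Shares of all genes called are those of limma-voom. Counts from edgeR, from DESeq2 or at an unadjusted p under 0.05 are not set beside their own shares, so they do not set a list apart. Alternatives were edgeR's quasi-likelihood test, DESeq2 1.42.0, limma-trend on log2(FPKM + 0.5) or log2(FPKM + 0.1), no TMM, no filter, adjusted p of at most 0.05, sample quality weights, a replicate block, a fit on all 28 samples, the early phase with D6, and leaving out each library. Named were the 9 members, list genes that were called or among the up to 4 with the highest mean FPKM, the 8 genes most like *Fabp5*, and the sort checks *Foxn1*, *Psmb11*, *Aire* and *Epcam*. The members and lists were chosen with earlier results of these data known. Groups came from the labels, and each replicate was 1 mouse. Values of 2 list genes are not reported here, although the list counts include them.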

Additional observations from a re-analysis of the deposited data

Results flagged for a closer look

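Among 18 groups of 4 late samples screened for a lone extreme value, 3 had one. The usual chance rate of about 1 in 20 is meant for replicates of 1 group. It does not apply here, since the 4 samples were taken on 4 different days, so the flags are a description only. *Fabp5* in cTECs was at 2095 FPKM at D16, with the nearest late sample at 810 FPKM. That gap of 0.83 of the range only just passed the cutoff. *Fabp3* in cTECs was at 1.09 FPKM at D28, with the nearest at 0.15. *Fabp7* in cTECs was at 3.85 FPKM at D20, with the nearest at 0.16, in the library with few detected genes. For both genes the other late values were near 0, where a single higher value fills most of the range. Each late day was 1 mouse, so sampling day and mouse cannot be told apart.

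*Fabp5* was also flagged for a difference between cell types. Its log2 fold change from D-2 to D6 was larger in cTECs than in mTECs by 2.60. The genes were chosen on that contrast, so the flag follows from the choice and is a description only.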

How the results depend on the processing

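Of 1362 values of single genes under the alternatives, 1251 kept direction and side of the threshold, 92 lost it, 17 gained it and 2 reversed. Of 201 counts of members called, 174 stayed within 1.5 times. The reversals were *Fabp5* from early to late in cTECs with sample quality weights, 0.35 (adjusted p = 0.487), and in mTECs without D16, -0.037 (leave-one-out range -0.037 to 0.42). Outside those values, *Fabp4* from early to late in cTECs also reversed, from -1.70 to 1.27 without D20, and was then called (adjusted p = 0.00888). The causes were not tested.

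Member counts moved as follows. D6 against D-2 in cTECs had 1 called, 2 with DESeq2, adjusted p of at most 0.05 or no filter, 0 with limma-trend at either pseudocount, and 1 to 2 with single libraries left out. In mTECs it had 1, 0 with edgeR, the 28-sample fit or limma-trend at either pseudocount, 2 with DESeq2 or quality weights, and 0 in every leave-one-out. D-2 against NPC in cTECs had 0, 2 with DESeq2 or no filter and 1 with adjusted p of at most 0.05 or the 28-sample fit; in mTECs it had 0, and 1 with DESeq2. D12 against D0 in mTECs had 0, and 1 (*Fabp5*) without a filter; the cell type difference of that contrast had 0, and 1 at adjusted p of at most 0.05. Late against early in cTECs had 0, and 0 to 1 with single libraries left out.

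Counts over all genes moved more: D6 against D-2 gave 213 calls in cTECs, 757 with DESeq2 and 5 with limma-trend, and 53 in mTECs, 470 with DESeq2 and 0 with limma-trend. Without D3 libraries with few genes (added after the data were seen), no member count from early to late moved.

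Samples with a shared replicate number were not alike: 1 of 18 pairs within a cell type correlated above 0.1 (-0.142 to 0.113). Of cTEC and mTEC samples with the same number in the title, 1 of 16 pairs did (-0.171 to 0.135). Whether such a pair came from 1 mouse was not given in the sources used here. The main contrasts between the cell types treated all samples as independent. With a replicate block the member counts were unchanged in all 11 comparisons, and calls over all genes went to 195 in cTECs and 145 in mTECs for D6 against D-2.

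Depth limits *Fabp3*, *Fabp7*, *Crabp1* and *Pparg*, which are near 0 in cTECs.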
